A study of Homo sapiens with 14 samples.

Results

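The p53 family and its target genes were represented by 29 genes: the family members TP63 and TP73, and 27 genes known as transcriptional targets of p53. They were listed by name and not by a cut on measured values, but earlier results of these data were known when the list was made. All 29 were found in the count tables, each under 1 Ensembl identifier. Expression was measured by RNA sequencing in OVCAR-3, CAOV3 and SKOV3, 3 lines of human ovarian carcinoma cells, each grown in its own medium in multi-well plates and exposed in stripped medium to 2.5 µM of GSK-J4 or of GSK-J5. GSK-J4 inhibits JMJD3 (KDM6B) and UTX (KDM6A), the enzymes that remove methyl groups from lysine 27 of histone H3, while GSK-J5, an isomer of it, served as the control compound, and no library is without a compound. The 8 groups were OVCAR-3 with GSK-J4 for 48 h (2 libraries) set against GSK-J5 for 48 h (2), OVCAR-3 with GSK-J4 for 72 h (3) against GSK-J5 for 72 h (3), CAOV3 with GSK-J4 for 72 h (3) against GSK-J5 (3), and SKOV3 with GSK-J4 for 72 h (3) against GSK-J5 (3). The 22 libraries held 24037007 to 37990707 counts each. Levels are CPM (counts scaled to a common library total, with TMM factors between libraries), and fold changes are log2 of GSK-J4 over GSK-J5. The labels do not state that replicates came from separate cultures, so a p-value here measures the spread between libraries, which may be technical.

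p53 is a transcription factor that is stabilised by DNA damage and other stress, binds a repeated decamer in DNA and turns on genes of cell cycle arrest, DNA repair and cell death. Its relatives p63 and p73 bind the same kind of element: p63 is best known as the master factor of stratified and basal epithelium, and p73 for roles in multiciliated cells and neurons. MDM2, itself a target, is the ubiquitin ligase that returns p53 to a low level. High-grade ovarian carcinomas nearly always carry a mutated p53, and all of these lines are known to lack functional wild-type p53. Many of the listed targets are also induced by other stress pathways.

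Replicates 1 and 2 formed a first library set and replicate 3 a second, for which the labels name another RNA kit and poly(A) selection; both compounds are in each set. In OVCAR-3 the GSK-J4 library of replicate 3 stood apart from the other GSK-J4 libraries of 72 h: over log2 CPM it correlated at 0.965 to 0.979 with the GSK-J5 libraries and at 0.903 and 0.907 with GSK-J4 replicates 1 and 2, which correlated at 0.990 with each other. Counts of called members and pathway genes under GSK-J4 in OVCAR-3 are therefore given with all libraries and with replicates 1 and 2 alone. The exception is the pathway genes in the contrasts of lines, which are given with all libraries. In SKOV3 the second set differed from the first under both compounds, as described with the levels. Of 8 epithelial and Müllerian markers, 8 had a mean of at least 1 CPM in OVCAR-3 and 7 in CAOV3, where WT1 was at 0 to 0.1245 CPM. In SKOV3 6 of 8 reached that level (not MUC16 and WT1), with EPCAM at 3.37 to 19.8 CPM in SKOV3 and 278.5 to 452.8 CPM in OVCAR-3 at 72 h. The summed leukocyte markers were below 1 CPM in every SKOV3 library and reached 105.9 CPM in CAOV3 under GSK-J4 and 114.3 CPM in CAOV3 under GSK-J5, where CD14 gave nearly all of it and the defining gene PTPRC had no count in any library. CD3E was below 0.1 CPM in every library of the 3 lines. The part of these markers in any result was not tested.

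The first question was how the 29 genes moved when OVCAR-3 cells met GSK-J4 for 48 h. The growth arrest targets GADD45A, PLK2 and CDKN1A, the death gene AEN and the autophagy gene DRAM1 rose, while the DNA repair targets DDB2 and POLH and the family member TP73 fell. Of the 29 genes, 6 were called higher (GADD45A, DRAM1, PLK2, AEN, TIGAR and CDKN1A) and 4 lower (TP73, POLH, DDB2 and TP53I11), at an adjusted p below 0.05 from edgeR's quasi-likelihood test with Benjamini-Hochberg adjustment over all 17402 genes tested. Over all of those genes, 11.3% were called higher and 7.63% lower. The median log2 change was -0.17 over the 29 genes and -0.03 over all genes tested. With replicates 1 and 2 alone, where all libraries are of the first set, 9 of the 29 were called higher and 12 lower, against 29.1% and 29.8% of all genes. Leaving out any 1 of the 4 libraries of 48 h from the fit of all libraries left 0 of the 29 called, no set term gave 5 and a replicate block 3. In these bulk samples, fewer cells of a kind and less RNA per cell cannot be told apart.

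**Figure D1:**
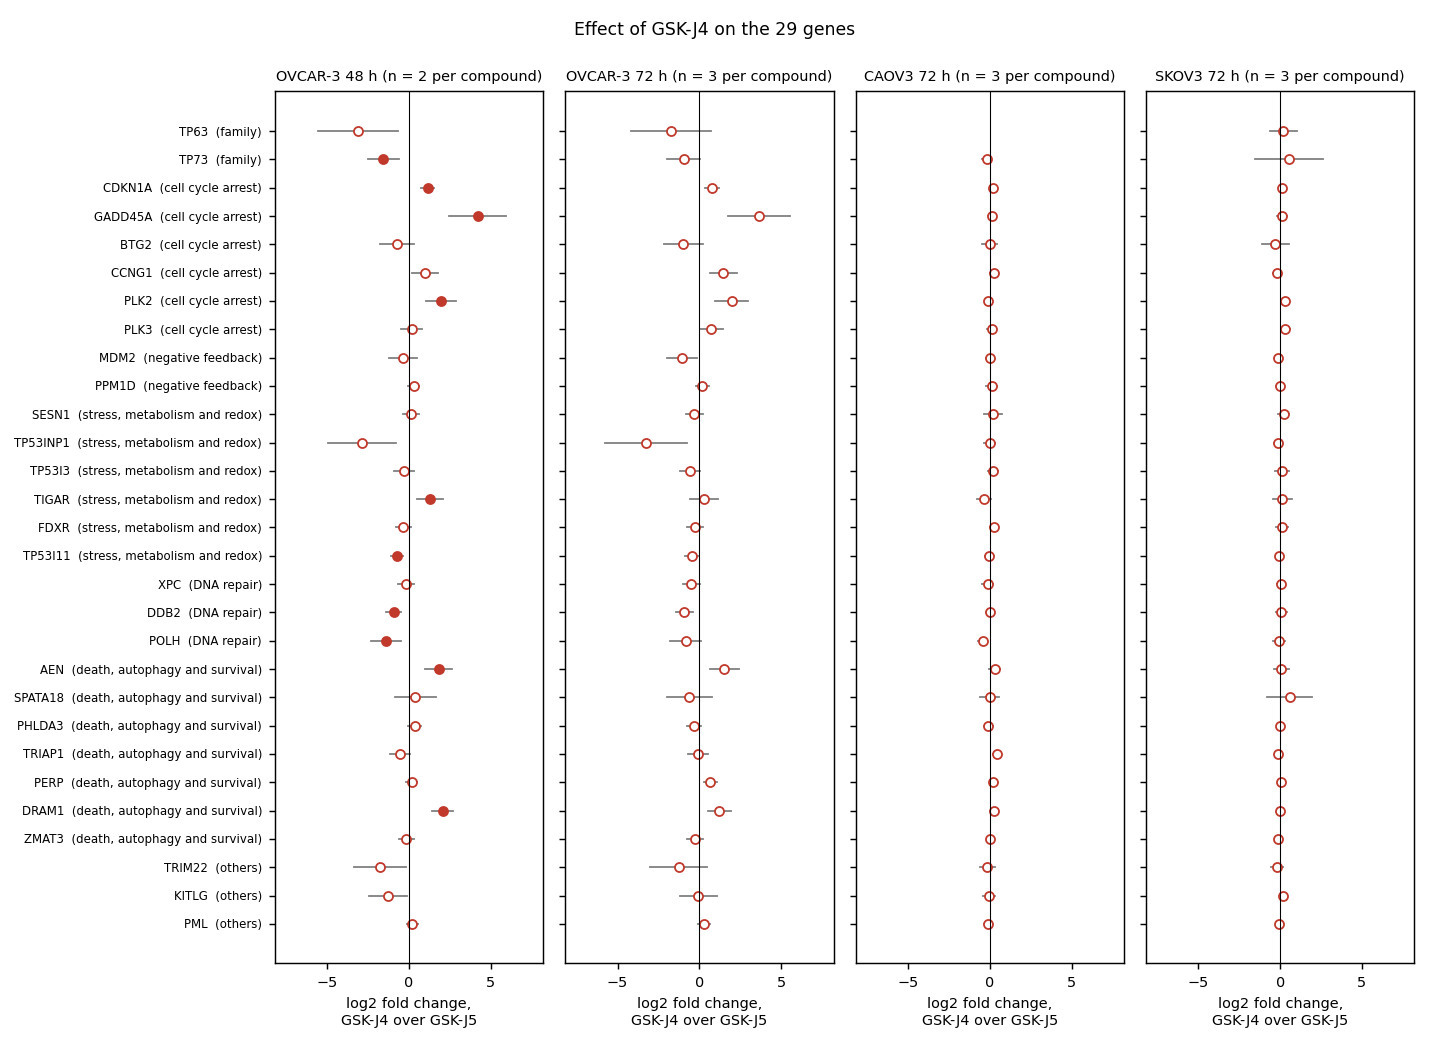
Log2 fold change of GSK-J4 over GSK-J5 for the 29 genes, with 95% intervals, in 4 comparisons; filled points passed an adjusted p of 0.05 (edgeR). Filled points are present at 48 h in OVCAR-3 and absent at 72 h in OVCAR-3, CAOV3 and SKOV3. At 72 h the changes run from -3.26 to 3.64 in OVCAR-3, while in CAOV3 and SKOV3 every gene tested lies between -0.42 and 0.59. The 48 h comparison was fitted with all OVCAR-3 libraries, and each 72 h comparison with the 72 h libraries of its line.

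GADD45A, a growth arrest gene that also lies downstream of ATF4 and other stress factors, is on chromosome 1 at 67685061 to 67688338 (GRCh38, plus strand). It was at 467.3 and 443.5 CPM in the GSK-J4 libraries of 48 h, against 24.6 and 26.5 CPM in GSK-J5. The groups lay far apart: the change was 18.3-fold (log2 4.19, SE 0.75, edgeR adjusted p = 0.0195). PLK2, a polo-like kinase of the G1 phase and of centriole duplication, was at 1016 and 1121 CPM in GSK-J4 and at 285.6 and 279.8 CPM in GSK-J5. It rose 3.86-fold (log2 1.95, SE 0.41, edgeR adjusted p = 0.0251), and its level was the highest of the 29 genes in the GSK-J4 libraries. CDKN1A encodes p21, the inhibitor of cyclin-dependent kinases through which p53 halts the cell cycle. Its level was 23.0 and 22.5 CPM in GSK-J4, against 11.02 and 10.13 CPM in GSK-J5, a rise of 2.20-fold (log2 1.14, SE 0.17, edgeR adjusted p = 0.015). CCNG1, which encodes cyclin G1, had 111.0 and 124.1 CPM in GSK-J4 and 59.9 and 61.1 CPM in GSK-J5 without passing the test (log2 0.99, edgeR adjusted p = 0.0704). Of the 6 genes of cell cycle arrest 3 were thus called higher and none lower, and BTG2, an antiproliferative gene, had a log2 change of -0.74 (edgeR adjusted p = 0.251).

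AEN, a p53-induced nuclease of apoptosis, was at 38.4 and 32.8 CPM in GSK-J4 and 9.60 and 10.9 CPM in GSK-J5. It rose 3.55-fold (log2 1.83, SE 0.36, edgeR adjusted p = 0.0221). DRAM1, a lysosomal membrane protein that promotes autophagy, was at 31.9 and 34.1 CPM in GSK-J4, against 7.69 and 8.44 CPM in GSK-J5. That is 4.18-fold (log2 2.06, SE 0.28, edgeR adjusted p = 0.0126), the second largest rise of the list. The other 5 genes of death, autophagy and survival (SPATA18, PHLDA3, TRIAP1, PERP and ZMAT3) did not pass, with log2 changes between -0.55 and 0.40. TIGAR, which lowers glycolytic flux, was a low-level gene: 5.49 and 6.94 CPM in GSK-J4 and 2.57 and 2.68 CPM in GSK-J5. It rose 2.42-fold (log2 1.27, SE 0.35, edgeR adjusted p = 0.0424).

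The promoters of 4 genes are shown because they moved in OVCAR-3: AEN, PLK2 and CDKN1A upward, DDB2 downward. The sequences are from RefSeq (build GRCh38.p14), 300 bases from 250 before to 50 after the start of the gene on its own strand. The windows are AEN chr15:88621090-88621389 (plus strand), PLK2 chr5:58460037-58460336 (minus strand), CDKN1A chr6:36678464-36678763 (plus strand) and DDB2 chr11:47214204-47214503 (plus strand). Capitals mark the p53 decamer in AEN and PLK2 and, nearer the 3′ end, the E-box CACGTG in AEN.
AEN: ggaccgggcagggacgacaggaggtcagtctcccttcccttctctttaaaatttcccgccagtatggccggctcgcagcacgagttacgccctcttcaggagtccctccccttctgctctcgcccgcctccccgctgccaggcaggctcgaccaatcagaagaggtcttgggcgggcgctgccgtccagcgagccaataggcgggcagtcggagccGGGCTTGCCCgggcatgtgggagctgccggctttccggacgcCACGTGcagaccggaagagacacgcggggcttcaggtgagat
PLK2: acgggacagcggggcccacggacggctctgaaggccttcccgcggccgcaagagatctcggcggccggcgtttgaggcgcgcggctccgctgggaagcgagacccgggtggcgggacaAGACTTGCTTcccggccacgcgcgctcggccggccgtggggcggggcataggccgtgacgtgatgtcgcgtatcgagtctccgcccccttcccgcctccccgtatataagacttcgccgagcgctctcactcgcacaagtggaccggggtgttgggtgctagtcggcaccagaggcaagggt
CDKN1A: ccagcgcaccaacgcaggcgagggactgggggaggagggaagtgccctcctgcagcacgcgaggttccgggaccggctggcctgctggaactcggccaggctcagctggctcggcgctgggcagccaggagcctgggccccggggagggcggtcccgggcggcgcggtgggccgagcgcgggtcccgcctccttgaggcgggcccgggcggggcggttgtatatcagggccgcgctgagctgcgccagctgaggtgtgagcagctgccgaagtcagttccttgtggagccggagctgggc
DDB2: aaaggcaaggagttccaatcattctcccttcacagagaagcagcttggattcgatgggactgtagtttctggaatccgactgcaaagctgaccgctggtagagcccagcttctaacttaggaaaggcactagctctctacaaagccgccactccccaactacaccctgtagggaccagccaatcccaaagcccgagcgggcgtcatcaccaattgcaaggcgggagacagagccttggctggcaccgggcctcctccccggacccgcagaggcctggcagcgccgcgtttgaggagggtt

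A window was found for 24 of the 29 genes, and 5 motifs were searched on both strands. The p53 decamer, 1 copy of the repeat that makes up a full p53 element, was in 3 of these 24 windows (AEN, FDXR and PLK2) and in 6.54% of all 27305 promoter windows. In AEN it lay 34 to 25 bases before the start and in PLK2 132 to 123 bases before it. The full element of 2 adjoining decamers was in none of the 24 and in 0.0183% of all windows, the ATF4-type motif TGATGCAA in none and 0.923%, the AP-1-type motif TGANTCA in 1 (PERP) and 7.76%, and the E-box CACGTG in 1 (AEN) and 7.43%. A match is a description of letters, and its absence says only that these letters are not in this window. FDXR, the third gene with the decamer and a mitochondrial reductase, had a log2 change of -0.35 (edgeR adjusted p = 0.213).

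Among the genes that fell at 48 h was TP73 itself, on chromosome 1 at 3652520 to 3736201. It had 2.30 and 2.75 CPM in GSK-J4, against 7.55 and 7.73 CPM in GSK-J5 (log2 -1.57, SE 0.41, edgeR adjusted p = 0.0388). Its exons overlap the opposite-strand gene TP73-AS1 over 601 bases, and since no source used here gives the strand setting of the counting, reads of the pair cannot be told apart. TP63 was nearly silent in this line: 3 counts over both GSK-J4 libraries and 32 over both GSK-J5 libraries. That is a 9.68-fold lower level in GSK-J4, with a 95% counting interval of 3.03 to 49.4-fold, and it did not pass the test (edgeR adjusted p = 0.0671). Of the 2 family members 1 was therefore called lower, and neither rose.

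DDB2 and POLH serve the repair of ultraviolet damage, DDB2 by recognising the lesion and POLH by copying across it. DDB2 was at 10.4 and 8.98 CPM in GSK-J4, against 19.2 and 18.7 CPM in GSK-J5 (log2 -0.94, SE 0.20, edgeR adjusted p = 0.0257). POLH was at 6.80 and 5.64 CPM in GSK-J4, against 16.8 and 17.4 CPM in GSK-J5 (log2 -1.43, SE 0.40, edgeR adjusted p = 0.0434). Both groups of both genes were apart, whereas XPC, the third repair gene, spanned 11.4 to 15.1 CPM in GSK-J4 and 14.8 to 16.1 CPM in GSK-J5 (log2 -0.19). TP53I11, a p53-inducible gene, was at 68.1 and 74.3 CPM in GSK-J4 and at 119.8 and 122.0 CPM in GSK-J5 (log2 -0.73, SE 0.17, edgeR adjusted p = 0.0295).

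The negative feedback genes did not pass at 48 h. MDM2 was at 35.7 and 44.1 CPM in GSK-J4 and 51.1 and 55.3 CPM in GSK-J5 (log2 -0.38, 95% interval -1.23 to 0.46, edgeR adjusted p = 0.44). PPM1D, a phosphatase that switches off p53 signalling, had a log2 change of 0.28 (edgeR adjusted p = 0.179). SESN1, a sestrin that restrains the growth kinase mTORC1, was at 9.73 and 10.8 CPM in GSK-J4 and 10.3 and 8.97 CPM in GSK-J5, overlapping groups (log2 0.12, 95% interval -0.34 to 0.59). A far larger difference stood just outside the threshold: TP53INP1, a stress-induced cofactor of p53 that promotes autophagy and cell death, had 30.2 and 25.1 CPM in GSK-J4, against 197.1 and 220.4 CPM in GSK-J5. Its log2 change was -2.89 (SE 0.90, edgeR adjusted p = 0.0558), and with replicates 1 and 2 alone it was called lower (edgeR adjusted p = 0.000128). TP53INP1, CCNG1, BTG2, PERP, PHLDA3 and PLK3 are described by library or by value because of what they showed, chosen after their values were seen. Of the 3 remaining genes, TRIM22 (log2 -1.75), KITLG (-1.28) and PML (0.21) were not called.

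**Figure D2:**
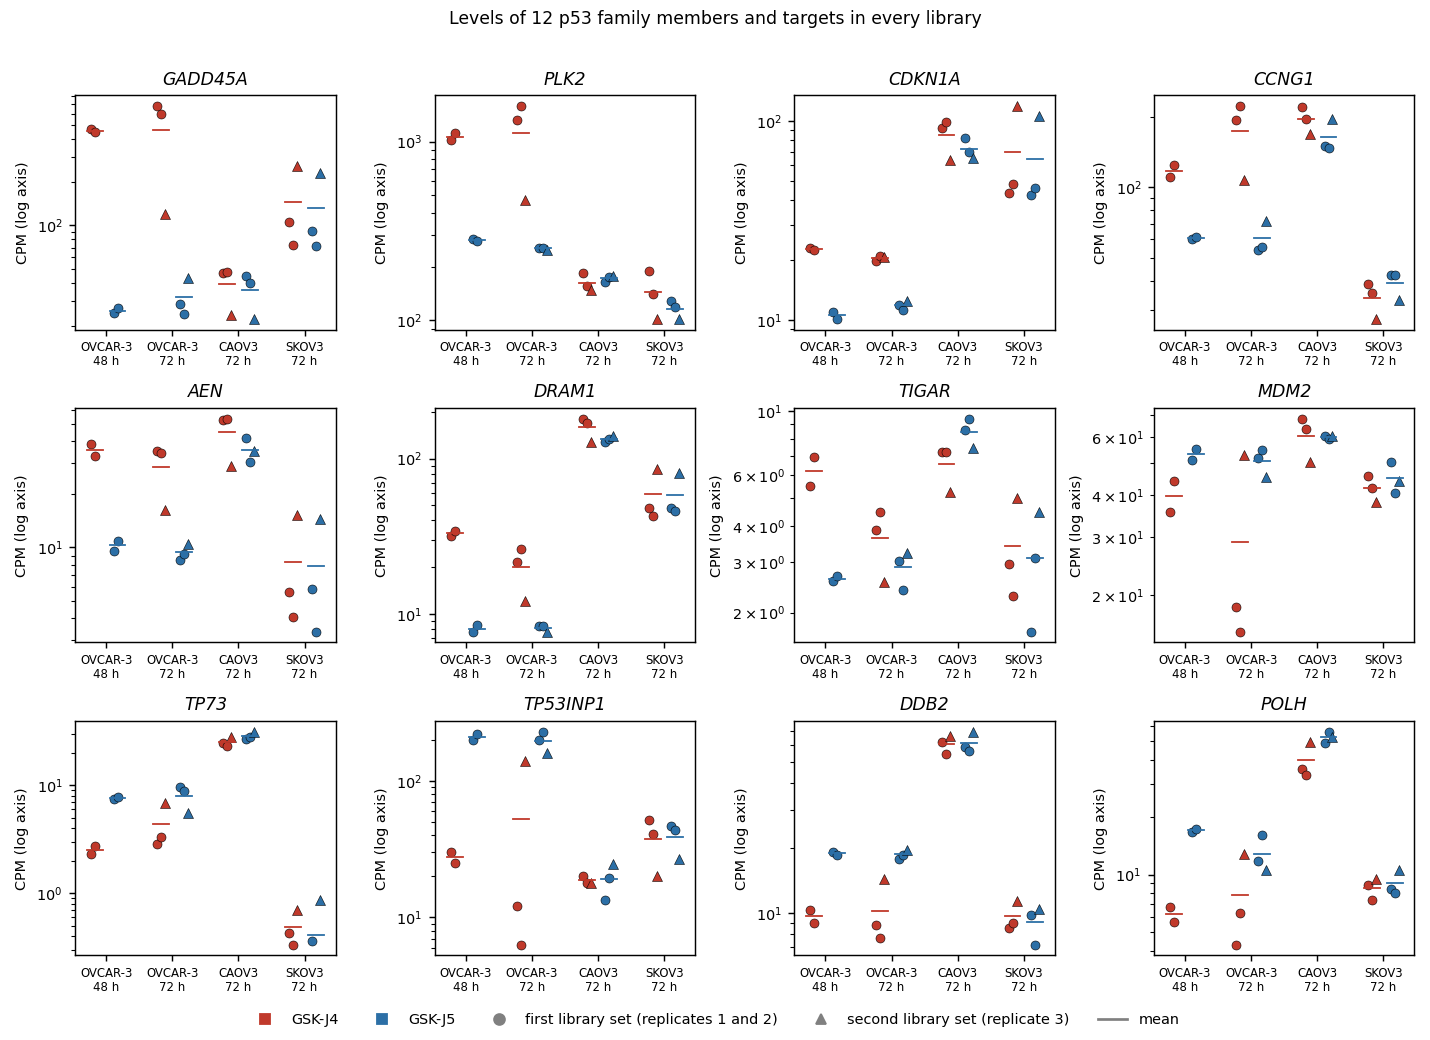
CPM (log axis) of 12 of the genes in every library, GSK-J4 left and GSK-J5 right within each line and time, circles for the first library set and triangles for the second, bars for means. For GADD45A, PLK2, AEN and DRAM1 in OVCAR-3 the GSK-J4 circles lie above the GSK-J5 points and the triangle of 72 h lies nearer to them, while in CAOV3 and SKOV3 the compounds overlap for all 12 except TIGAR in CAOV3; 1 SKOV3 GSK-J5 library without a TP73 count is not drawn.

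At 72 h in OVCAR-3 the same genes were apart in replicates 1 and 2, and replicate 3 was closer to its control. With all 6 libraries, 0 of the 29 genes were called by edgeR, against 0.0298% of all 16802 genes called higher and 0% lower; 12 of the 29 had an unadjusted p below 0.05, as had 7244 of all 16802 genes. The DESeq2 Wald test called 7 of the 29 higher and 3 lower, beside 3344 and 2990 of all 16802 genes. Without a test, every GSK-J4 library was above every GSK-J5 library for 8 of the 29, and for 22.8% of all genes. These 8 were AEN, CCNG1, CDKN1A, DRAM1, GADD45A, PERP, PLK2 and PPM1D. Every GSK-J4 library was below every GSK-J5 library for 4 (DDB2, TP53I3, TP53INP1 and XPC), and for 15.3% of all genes. With all 10 OVCAR-3 libraries in 1 fit, 8 were called higher and 4 lower, against 22.9% and 20.9% of all genes. With replicates 1 and 2 alone, 28 of the 29 passed the filter on low counts, and 10 were called higher and 12 lower, against 34.6% and 37.1% of all genes. All 10 genes called at 48 h had the same sign at 72 h with all libraries. How often this held among all genes called at 48 h was not counted.

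GADD45A was at 676.9, 593.0 and 120.3 CPM in GSK-J4 replicates 1 to 3 at 72 h, and at 28.5, 24.4 and 42.9 CPM in GSK-J5. The groups did not overlap, and replicate 3 of GSK-J4 was far below the others (log2 3.64, SE 0.78, edgeR adjusted p = 0.07; 4.67 with replicates 1 and 2 alone, adjusted p = 2.0e-07). PLK2 was at 1323, 1584 and 469.1 CPM in GSK-J4, against 253.9, 255.0 and 248.5 CPM in GSK-J5, with no overlap (log2 1.98, SE 0.41, edgeR adjusted p = 0.07; 2.60 with replicates 1 and 2 alone). CDKN1A differed from these in that replicate 3 was not set apart: 19.8, 20.9 and 20.8 CPM in GSK-J4 and 11.9, 11.2 and 12.5 CPM in GSK-J5 (log2 0.77, SE 0.18, edgeR adjusted p = 0.07). CCNG1 was at 194.4, 222.4 and 107.3 CPM in GSK-J4, against 53.8, 55.8 and 71.8 CPM in GSK-J5 (log2 1.47, SE 0.35, edgeR adjusted p = 0.07). BTG2 showed opposite orders in the library sets: 8.18 and 7.92 CPM in GSK-J4 against 27.3 and 26.9 CPM in GSK-J5 in the first, and 17.2 against 10.97 CPM in the second.

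In the death and autophagy group AEN was at 35.3, 34.3 and 16.3 CPM in GSK-J4 and at 8.498, 9.173 and 10.5 CPM in GSK-J5 (log2 1.53, SE 0.35, edgeR adjusted p = 0.07). DRAM1 was at 21.7, 26.2 and 12.1 CPM in GSK-J4, against 8.33, 8.37 and 7.70 CPM in GSK-J5 (log2 1.22, SE 0.28, edgeR adjusted p = 0.07). Both kept their groups apart, with replicate 3 the lowest of the GSK-J4 libraries. PERP, a desmosome protein that takes part in apoptosis and is also a p63 target, was the exception in that replicate 3 was highest: 425.8, 430.0 and 556.4 CPM in GSK-J4 and 259.0, 274.9 and 340.4 CPM in GSK-J5 (log2 0.67, SE 0.16, edgeR adjusted p = 0.07). TIGAR, called at 48 h, overlapped at 72 h, at 3.88, 4.47 and 2.55 CPM in GSK-J4 and 3.03, 2.40 and 3.23 CPM in GSK-J5.

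MDM2 was at 18.4, 15.5 and 52.9 CPM in GSK-J4 at 72 h, and at 51.8, 54.8 and 45.6 CPM in GSK-J5. GSK-J4 replicates 1 and 2 were the lowest of the 6 libraries and replicate 3 lay among the controls (log2 -1.05, SE 0.37, edgeR adjusted p = 0.0909). With replicates 1 and 2 alone MDM2 fell, with a log2 change of -1.56 (SE 0.13, edgeR adjusted p = 9.4e-06), so that CDKN1A and GADD45A were higher and MDM2 lower in the same 2 GSK-J4 libraries. TP53INP1 followed the same split: 12.2, 6.32 and 139.7 CPM in GSK-J4, against 199.9, 228.3 and 160.0 CPM in GSK-J5 (log2 -3.26, SE 1.03, edgeR adjusted p = 0.0754; -4.45 with replicates 1 and 2 alone). SESN1 was at 6.64, 6.32 and 8.69 CPM in GSK-J4 and 8.02, 9.52 and 8.59 CPM in GSK-J5, and did not pass in either fit. MDM2 exons overlap those of 3 other genes, over 133 to 439 bases, and reads there cannot be assigned with certainty.

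Of the repair genes, DDB2 was at 8.82, 7.66 and 14.3 CPM in GSK-J4 and 17.9, 18.7 and 19.6 CPM in GSK-J5, without overlap (log2 -0.93, SE 0.21, edgeR adjusted p = 0.07). POLH was at 4.30, 6.32 and 12.9 CPM in GSK-J4 and 11.8, 16.1 and 10.5 CPM in GSK-J5, overlapping through replicate 3. TP73 was at 2.87, 3.34 and 6.82 CPM in GSK-J4, against 9.60, 8.97 and 5.57 CPM in GSK-J5, with the order turned round in replicate 3 (log2 -0.97, edgeR adjusted p = 0.124; -1.49 and 0.000148 with replicates 1 and 2 alone). TP53I11 was at 78.6, 84.1 and 126.3 CPM in GSK-J4 and 138.5, 122.4 and 124.3 CPM in GSK-J5, apart in the first set and close in the second. TP63 had 2 counts over GSK-J4 replicates 1 and 2 and 28 over the same GSK-J5 replicates, 9.26-fold lower with a 95% counting interval of 2.34 to 80.2-fold. In replicate 3 TP63 was at 0.669 CPM in GSK-J4 and 0.722 CPM in GSK-J5.

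**Figure D3:**
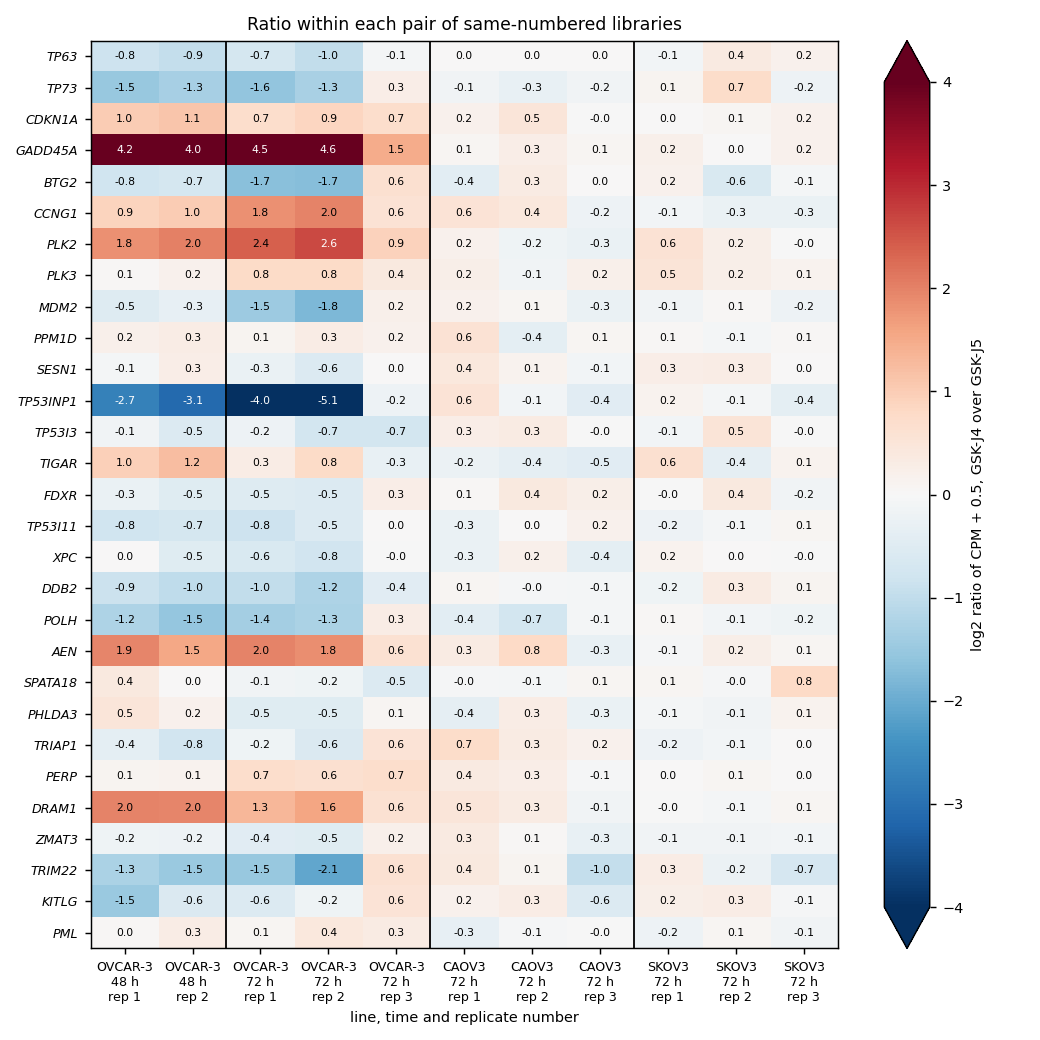
Log2 ratio of GSK-J4 over GSK-J5 (CPM + 0.5) for the 29 genes in each pair of same-numbered libraries, red higher and blue lower in GSK-J4. The 4 first-set columns of OVCAR-3 carry the strong colours, and the column of replicate 3 is paler, with GADD45A at 1.48 there and at 4.55 and 4.58 in replicates 1 and 2 of 72 h.

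Pair by pair, all 29 genes had 1 sign in OVCAR-3 replicates 1 and 2 at 72 h, and 16 of these had the same sign in replicate 3. For 21 of the 29 the ratio of replicate 3 was smaller in size than both others, and the median size of the log2 ratio was 0.72, 0.78 and 0.40 in replicates 1 to 3. Over all genes above 1 CPM the SD of this ratio was 1.26, 1.30 and 0.45, so the narrower spread of replicate 3 was not particular to the 29. How many of all genes kept their sign was not counted. Of the 8 epithelial and Müllerian markers, 1 was called higher by edgeR (KRT7) and 3 lower (KRT8, KRT18 and WT1) at 48 h in OVCAR-3, and 0 either way at 72 h with all libraries, where 3 had an unadjusted p below 0.05 and DESeq2 called 1 higher and 1 lower. In replicates 1 and 2 alone, 2 were called higher and 4 lower at 72 h. Their sum was 6164 to 6332 CPM in GSK-J4 at 48 h, against 9371 to 9542 CPM in GSK-J5, and 7954 to 8875 CPM in GSK-J4 at 72 h, against 8115 to 9871 CPM in GSK-J5, where the groups overlapped. All 8 of those markers were at 1 CPM or more in every one of these groups. The summed fibroblast markers were at 12.3 to 13.8 CPM in GSK-J4 at 48 h and 39.3 to 40.6 CPM in GSK-J5, nearly all of it COL1A1, with COL3A1 below 0.1 CPM in every OVCAR-3 library. The part of these markers in the result was not tested.

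Whether the effect differed between 72 h and 48 h was tested as an interaction in the 10 OVCAR-3 libraries. None of the 29 genes was called by edgeR, against 0.00575% of all genes. An unadjusted p below 0.05 in edgeR was found for 3 of the 29 and for 1279 of all 17402 genes. The DESeq2 Wald test called 1 of the 29, and its share of all genes is not given here. With replicates 1 and 2 alone 8 were called, against 27% of all genes, 4 in each direction. The effect was more positive at 72 h for CCNG1 (difference in log2 change 1.02), PLK2 (0.65), PERP (0.61) and GADD45A (0.48), and more negative for TP53INP1 (-1.57), MDM2 (-1.19), BTG2 (-0.93) and PHLDA3 (-0.77), a repressor of the survival kinase AKT. GADD45A had the opposite sign with all libraries (-0.52, 95% interval -2.60 to 1.55).

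In CAOV3 cells at 72 h the 29 genes moved little. TP63 had no count in any of the 6 libraries. Of the other 28 edgeR called 0, against 0.0642% of all genes called higher and 0.251% lower. An unadjusted p below 0.05 in edgeR was found for 7 of the 28 and for 2801 of all 17137 genes. The DESeq2 Wald test called 1 of the 28, beside 292 of all 17137 genes called higher and 376 lower. The log2 changes ran from -0.42 (POLH) to 0.43 (TRIAP1, an inhibitor of caspase-9 activation), with a median of 0.003 over the 28 and -0.008 over all genes. GADD45A was at 46.9, 47.6 and 23.9 CPM in GSK-J4 and 44.8, 39.9 and 22.4 CPM in GSK-J5, a log2 change of 0.14 (95% interval -0.09 to 0.38). CDKN1A was at 91.9, 98.7 and 63.6 CPM in GSK-J4 and 82.3, 69.7 and 64.7 CPM in GSK-J5, overlapping groups (log2 0.22, 95% interval 0.005 to 0.43, edgeR adjusted p = 0.292). MDM2 was at 68.1, 63.3 and 50.3 CPM in GSK-J4 and 60.5, 59.4 and 60.6 CPM in GSK-J5 (log2 0.01, 95% interval -0.21 to 0.22). SESN1 spanned 4.04 to 6.12 CPM in GSK-J4 and 3.65 to 5.73 CPM in GSK-J5, and TP73 23.1 to 28.2 CPM in GSK-J4 and 26.9 to 31.5 CPM in GSK-J5. With replicates 1 and 2 alone, 5 genes were called higher (AEN, TRIAP1, CCNG1, DRAM1 and PERP, log2 changes 0.29 to 0.53) and POLH lower (log2 -0.63), against 6.7% of all genes called higher and 7.38% lower.

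In SKOV3 cells 0 of the 29 genes were called by edgeR, against 0.0236% of all genes called higher and 0.0177% lower. An unadjusted p below 0.05 in edgeR was found for 3 of the 29 and for 594 of all 16981 genes. The DESeq2 Wald test called 0 of the 29, beside 4 of all 16981 genes called higher and 15 lower. Here the replicate numbers, which follow the library set, were taken to pair the libraries. With the replicate number as a block the count was also 0. CDKN1A was at 43.3, 47.9 and 118.7 CPM in GSK-J4 and 42.5, 45.8 and 105.6 CPM in GSK-J5 (log2 0.08, 95% interval -0.09 to 0.26). GADD45A was at 105.5, 73.2 and 258.7 CPM in GSK-J4 and 91.8, 71.8 and 231.8 CPM in GSK-J5 (log2 0.13, 95% interval -0.18 to 0.45). In both genes the sets differed far more than the compounds. MDM2 was at 45.6, 42.3 and 38.2 CPM in GSK-J4, against 50.5, 40.6 and 44.1 CPM in GSK-J5 (log2 -0.11, 95% interval -0.32 to 0.10). SESN1 was at 9.71, 10.0 and 8.09 CPM in GSK-J4 and 7.93, 8.10 and 7.92 CPM in GSK-J5 (log2 0.21, 95% interval -0.14 to 0.56). TP73 stayed below 1 CPM in every SKOV3 library, with 1 GSK-J5 library at 0.

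The effects of the lines were then tested against each other in the 18 libraries of 72 h. The effect in OVCAR-3 minus that in CAOV3 was called for 9 of the 29 genes, 7 more positive in OVCAR-3 and 2 more negative, against 12.7% and 6.63% of all genes. OVCAR-3 minus SKOV3 also gave 7 and 2, against 13% and 7.82% of all genes. These tests share the OVCAR-3 libraries. Both counts were 0 when replicate 1, or replicate 2, was left out of every line. With replicates 1 and 2 alone they were 20 and 17. The share of all genes called in these fits is not given here, so these counts do not set the 29 apart. In OVCAR-3 by itself at 72 h, replicates 1 and 2 alone gave 34.6% of all genes called higher and 37.1% lower. The 7 were GADD45A (3.50 against CAOV3 and 3.50 against SKOV3), PLK2 (2.08 and 1.72), CCNG1 (1.23 and 1.70), AEN (1.25 and 1.47), DRAM1 (1.00 and 1.25), CDKN1A (0.57 and 0.70) and PERP (0.49 and 0.66), all as differences in log2 change. The 2 were TP53INP1 (-3.22 and -3.12) and DDB2 (-0.90 and -0.99). MDM2 did not pass (-1.03 against CAOV3, edgeR adjusted p = 0.0648; -0.92 against SKOV3, edgeR adjusted p = 0.0912). CAOV3 minus SKOV3 gave 0 of 29 by edgeR, against 0% of all genes. None of the 29 had an unadjusted p below 0.05 in edgeR, beside 1077 of all 20252 genes. The DESeq2 Wald test called 0 of the 29.

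Other genes of the pathway were taken from 2 lists, 20 regulators and cofactors of p53 and 30 further targets. Of the regulators, 3 were called higher at 48 h in OVCAR-3 and 2 lower by edgeR, beside 11.3% and 7.63% of all genes. Among those called, the largest changes were in ATR, the kinase that signals replication stress (log2 -1.03), TOPORS (-0.98), SIRT1, a deacetylase of p53 (0.96), and TP53BP2, which encodes the cofactor ASPP2 (0.88). Of the 28 further targets tested, 9 rose and 1 fell, beside the same shares of all genes. Among replicates 1 and 2 alone, 11 of the 20 regulators were called higher and 7 lower at 48 h, and 13 and 8 of 27 further targets, beside 29.1% and 29.8% of all genes. The pro-apoptotic BH3-only gene PMAIP1 (NOXA) was at 42.3 and 38.9 CPM in GSK-J4, against 8.73 and 8.88 CPM in GSK-J5 (log2 2.24). GDF15, a secreted stress cytokine, and STEAP3, a metalloreductase of iron uptake, rose by log2 8.14 and 2.45. E2F7, a repressor of the cell cycle, was the one that fell, at 2.09 and 2.52 CPM in GSK-J4 against 17.7 and 20.4 CPM in GSK-J5 (log2 -3.01, edgeR adjusted p = 0.0443). The median log2 change was 0.38 over the regulators and 0.22 over the further targets. At 72 h in OVCAR-3, CAOV3 and SKOV3, edgeR called 0 of either list; with all libraries of OVCAR-3 at 72 h, 12 of the 20 regulators and 14 of the 28 further targets had an unadjusted p below 0.05, and the DESeq2 Wald test called 10 and 14, beside the 7244 genes at that p and the 3344 higher and 2990 lower by DESeq2 among all 16802. At 72 h in OVCAR-3 with replicates 1 and 2 alone, 10 of the 20 regulators were called higher and 7 lower, and 12 and 10 of 27 further targets, beside 34.6% and 37.1% of all genes. In CAOV3, with 19 of the regulators tested, these were 5 and 3 at the unadjusted p, with 3 and 0 called by DESeq2. In SKOV3 they were 1 and 4, with 0 and 0 called by DESeq2. Over all genes, 2801 of 17137 in CAOV3 and 594 of 16981 in SKOV3 were at that p. DESeq2 called 292 of them higher and 376 lower in CAOV3, and 4 higher and 15 lower in SKOV3.

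The levels in GSK-J5 at 72 h describe how each line expresses the 29 genes under the control compound. They do not measure p53 activity. Each line was grown in its own medium, so line and medium cannot be told apart. Per kilobase of exon, PERP was among the 2 highest of the 29 in each line, at 42.1 ± 7.53 CPM per kb in SKOV3, 59.0 ± 8.27 in CAOV3 and 67.9 ± 10.05 in OVCAR-3 (SD, n = 3 each). GADD45A was first in SKOV3 at 63.7 ± 42.2 CPM per kb, and TP63, TP73 and SPATA18 were the lowest in SKOV3. The lines differed by test in most of the list, as they did over all genes. SKOV3 against OVCAR-3 gave 10 higher and 11 lower (28% and 29.4% of all genes), CAOV3 against OVCAR-3 gave 16 and 7 (27.6% and 26.9%), and SKOV3 against CAOV3 gave 6 and 16 (29.4% and 30.4%).

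Against OVCAR-3, CAOV3 was called higher for 5 of the 7 genes of death, autophagy and survival, 2 of the 3 repair genes and 3 of the 6 arrest genes, and lower for 1, 0 and 2 of them. Of the 6 genes of stress, metabolism and redox 2 were higher and 3 lower, and neither negative feedback gene was called. TRIM22, KITLG and PML were all called higher. Over all genes 27.6% were called higher and 26.9% lower. The 4 largest differences upward were DRAM1 (log2 4.05, SE 0.19), PLK3 (3.30, SE 0.22), KITLG (3.19, SE 0.19) and SPATA18 (2.94, SE 0.78). KITLG is the ligand of the receptor KIT, and SPATA18 a mediator of mitochondrial quality control. DRAM1 in control libraries was at 127.3, 134.6 and 140.3 CPM in CAOV3 and 8.33, 8.37 and 7.70 CPM in OVCAR-3. Downward they were TP63, TP53INP1 (log2 -3.32, SE 0.26), TP53I11 (-1.93, SE 0.25) and BTG2 (-1.44, SE 0.36). TP63 had 0 counts in CAOV3 and 49 in OVCAR-3. That is 17.6-fold lower in CAOV3 against a floor of 3 counts over the group, with a lower 95% counting limit of 13.8-fold. TP73 was at 26.9, 28.2 and 31.5 CPM in CAOV3, against 9.60, 8.97 and 5.57 CPM in OVCAR-3 (log2 1.84, SE 0.51, edgeR adjusted p = 0.0124).

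SKOV3 against OVCAR-3 had KITLG (log2 4.80, SE 0.19), DRAM1 (2.81, SE 0.19), CDKN1A (2.37, SE 0.28) and PLK3 (2.22, SE 0.21) at the top. At the bottom stood TP73 (-4.42, SE 0.66), BTG2 (-3.36, SE 0.39), TP53INP1 (-2.33, SE 0.25) and TP53I11 (-1.58, SE 0.25). SKOV3 against CAOV3 was highest for TP63, GADD45A (1.66, SE 0.43), KITLG (1.61, SE 0.16) and TP53INP1 (0.99, SE 0.25) and lowest for TP73 (-6.26, SE 0.68), DDB2 (-2.77, SE 0.155), POLH (-2.55, SE 0.20) and SPATA18 (-2.55, SE 0.78). TP63 had 147 counts over the SKOV3 control libraries and 0 over those of CAOV3. That is 52.2-fold higher in SKOV3 against a floor of 3 counts over the group, with a lower 95% counting limit of 41.9-fold. In replicate 3 alone SKOV3 had 2 counts, so this bound rests on replicates 1 and 2. With replicates 1 and 2 alone the difference of GADD45A between SKOV3 and CAOV3 was 0.94 on the log2 scale, and TP63, not called between SKOV3 and OVCAR-3 with all libraries (log2 0.98, edgeR adjusted p = 0.536), was called at 2.25. CDKN1A did not pass between SKOV3 and CAOV3 (log2 -0.28, 95% interval -0.88 to 0.32), but was lower in SKOV3 with replicates 1 and 2 alone (log2 -0.79, edgeR adjusted p = 0.000114).

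**Figure D4:**
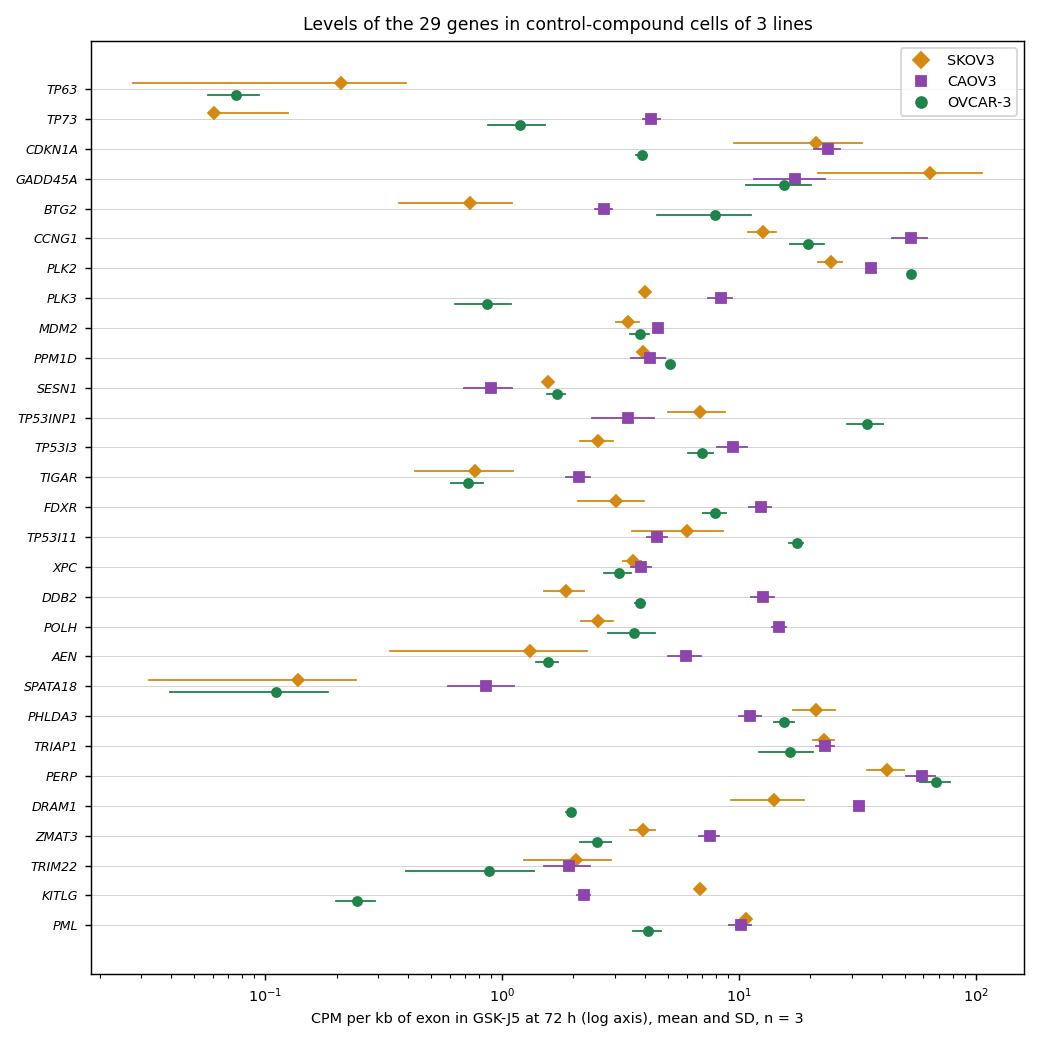
CPM per kilobase of exon (log axis) in GSK-J5 libraries of 72 h, mean and SD over 3 libraries, for SKOV3, CAOV3 and OVCAR-3 from top to bottom within each gene; TP63 has no point in CAOV3, where it had no count. DRAM1, CDKN1A, KITLG and PLK3 lie lowest in OVCAR-3, and TP53INP1, BTG2 and TP53I11 highest.

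TP63 in SKOV3 depended on the library set. In GSK-J4 it was at 2.49 and 2.51 CPM in replicates 1 and 2 and 0.155 CPM in replicate 3, and in GSK-J5 at 2.74, 1.86 and 0.0825 CPM. The basal epithelial keratins KRT5 and KRT14, in tissues where p63 is a defining factor, followed the same split: KRT5 was at 96.0, 136.2 and 1.47 CPM in GSK-J4 and 117.3, 137.4 and 1.98 CPM in GSK-J5. KRT14 was at 56.7, 57.6 and 0.0774 CPM in GSK-J4 and 78.2, 92.0 and 0.0413 CPM in GSK-J5. In GSK-J5 libraries of SKOV3, ITGB4 was at 61.5 CPM in the second set, against a mean of 435.8 CPM in the first. COL17A1 differed less, at 5.98 against 9.31 CPM, and KRT6A was below 0.1 CPM in every SKOV3 library. CAOV3, without a TP63 count, had KRT5 at 65.5 CPM in the second set and a mean of 90.15 CPM in the first, in GSK-J5. The part of TP63 in these levels was not tested. In SKOV3, CDKN1A, GADD45A and AEN went the other way, 2.39, 2.83 and 3.17-fold higher in the second set than in the mean of the first, in GSK-J5 libraries. In CAOV3 no member differed by more than 2-fold between the sets under GSK-J5. By that measure 1 was higher and 1 lower in the second set in OVCAR-3, and 4 were higher and 4 lower in SKOV3. How many of all genes differed by that measure was not counted. Genes outside the pathway split as well: in GSK-J5 libraries CDH1 was at 0.454 CPM in the second set, against a mean of 8.19 CPM in the first, PECAM1 at 0.165 against 5.66 CPM, and COL3A1 at 3.71 against 30.9 CPM. Whether both sets of SKOV3 come from the same kind of culture was not tested, and a SKOV3 mean over 3 libraries, as in the control comparisons, takes in both. The part of the library set in these comparisons was not tested beyond the values with replicates 1 and 2 alone.

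**Figure D5:**
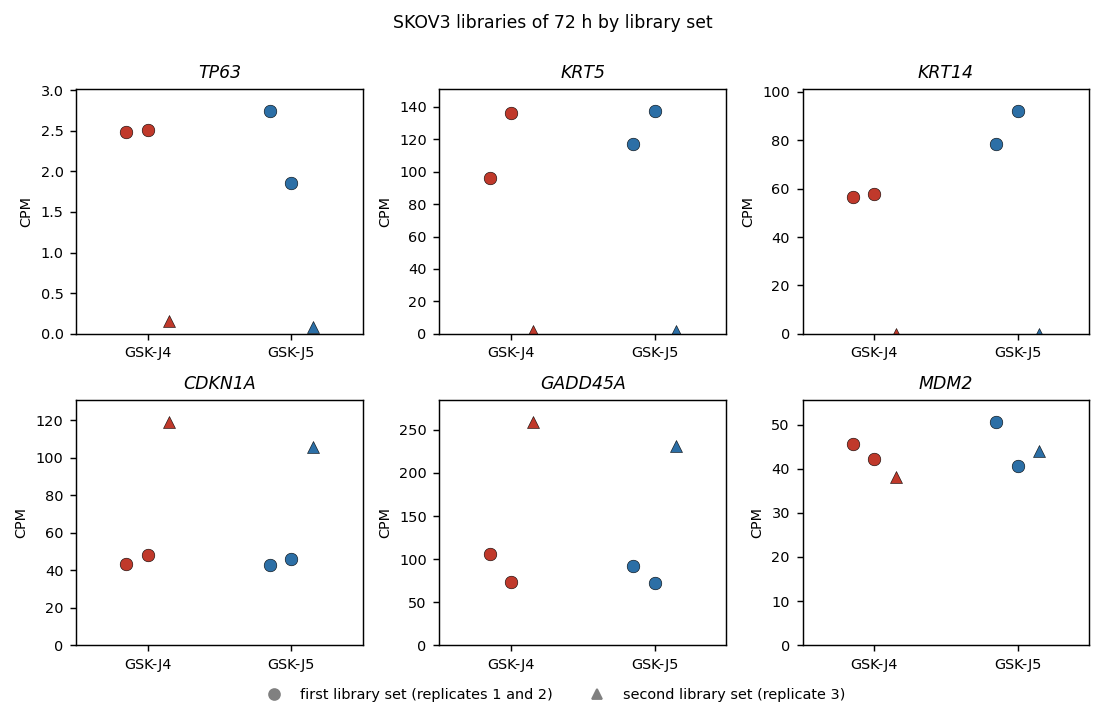
CPM of 6 genes in the SKOV3 libraries of 72 h, GSK-J4 left and GSK-J5 right, circles for the first library set and triangles for the second. TP63, KRT5 and KRT14 are near 0 in the second set and CDKN1A and GADD45A higher there, under both compounds, while MDM2 stays between 38.2 and 50.5 CPM.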

How the data were processed

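Deposited raw counts per Ensembl gene, whole numbers without normalization, were read for 22 libraries from 3 tables; since replicates 1 and 2 of a group share 1 sample entry, there are 14 samples. Per the submitters' processing notes, the authors used STAR and DESeq2 with GRCh38 (hg38). How reads were counted, on which strand and with which annotation is not given in the sources used here. Symbols came from a gene name table (58472 identifiers) or GENCODE release 29 (345), with 8 left nameless; positions and exon lengths are from GENCODE release 29 on GRCh38. The header of 1 OVCAR-3 column is shortened and was taken as GSK-J4, 72 h, replicate 3, since no other sample lacked a column. The gene of p53 itself is not analysed here.

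Tests used edgeR 4.0.16 (R 4.3.3): filterByExpr (minimum count 10), TMM scaling, glmQLFit (robust) and glmQLFTest, with a term for the library set and Benjamini-Hochberg adjustment over every gene in the fit, at 0.05. The 72 h comparisons were fitted per line (6 libraries). The 48 h comparison and the contrast of times used the 10 OVCAR-3 libraries, the contrasts of lines the 18 libraries of 72 h with compound and set nested in line, and control levels the 9 GSK-J5 libraries of 72 h. Standard errors and intervals were derived from the F statistic. The fits were tested on simulated data with known changes. The simulated libraries had the same spread for every gene and no difference between library sets. No simulated replicate stood apart from the others, so the spread seen in OVCAR-3 at 72 h was not covered. CPM levels use TMM factors over all 22 libraries. Totals of 24037007 to 37990707 counts mean that a count of 0 allows up to 3 counts, 0.07897 to 0.1248 CPM; intervals and floors cover counting error only.

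Pairing was checked by correlating the deviations of same-numbered libraries from their group means. In SKOV3 the correlations were 0.691, 0.699 and 0.906, all above 0.1, so the numbers, which follow the library set, were taken to pair the libraries. These deviations include the difference between the sets, so they cannot show which libraries of the first set belong together. In OVCAR-3 at 48 h both were 0.248, also above 0.1. With 2 libraries per group the deviations mirror each other, so both values had to be equal and count as 1. The main fit of 48 h did not pair its libraries, and the count with a replicate block is given beside it. In CAOV3 1 of 3 and in OVCAR-3 at 72 h all 3 were below 0.1. Alternatives were the size factors and the Wald test of DESeq2 1.42.0, voom in limma 3.58.1, no filter, no set term, a replicate block, other choices of libraries, and leaving out each replicate or library.

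TP63, TP73, CDKN1A, MDM2, GADD45A and SESN1 are described by library, as are called genes among the 5 highest or 5 lowest changes of a compound comparison; for control levels the 4 highest and 4 lowest called genes are named, and for the pathway lists up to 4 with the largest changes. The 29 genes and the lists were chosen with earlier results of these data known. Exons of 14 of the 29 genes are overlapped by another gene in GENCODE, so that their counts are uncertain to that extent.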

Additional observations from a re-analysis of the deposited data

Results flagged for a closer look

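The effect of GSK-J4 at 72 h differed between lines, by a test of the difference itself, for 9 genes in each of 2 comparisons that share the OVCAR-3 libraries. In each, 7 were more positive in OVCAR-3 and 2 more negative, beside 12.7% and 6.63% of all genes against CAOV3 and 13% and 7.82% against SKOV3. Against CAOV3 the difference in log2 change was 3.496 for GADD45A, 2.081 for PLK2, 1.231 for CCNG1, 1.252 for AEN, 1.001 for DRAM1, 0.5748 for CDKN1A and 0.493 for PERP, and it was -3.218 for TP53INP1 and -0.8992 for DDB2. Against SKOV3 it was 3.501 for GADD45A, 1.716 for PLK2, 1.701 for CCNG1, 1.468 for AEN, 1.245 for DRAM1, 0.703 for CDKN1A and 0.6591 for PERP, and -3.117 for TP53INP1 and -0.9866 for DDB2. All 9 genes of each comparison were also called with replicates 1 and 2 alone, and 0 were called when replicate 1, or replicate 2, was left out of every line. The share of all genes called in those fits is not given here.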

How the results depend on the processing

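Counts of called genes among the 29 were repeated under each alternative. Most are given without the share of all genes called, so they do not compare the 29 genes with other genes. At 48 h in OVCAR-3, 10 became 5 with no set term, 3 with a replicate block, and 21 with replicates 1 and 2 alone or only the 4 libraries of 48 h. Leaving out replicates or libraries gave 0 to 21: 0 without any 1 of the 4 libraries of 48 h, 21 without either replicate 3 library of 72 h. At 72 h in OVCAR-3, 0 became 10 with the DESeq2 Wald test, 5 with no filter, 22 with replicates 1 and 2 alone and 12 with all 10 libraries, and 0 to 23 with libraries left out (22 without the GSK-J4 and 23 without the GSK-J5 library of replicate 3). For 72 h minus 48 h, 0 became 1 with the Wald test and 8 with replicates 1 and 2 alone, and 0 to 8 with libraries left out. There GADD45A turned from -0.52 to 0.4768 with replicates 1 and 2 alone, which is also its value without replicate 3, and ranged from -1.257 to 0.4768 with libraries left out, positive without the GSK-J4 (0.4689) or the GSK-J5 library of replicate 3 (0.474).

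In CAOV3, 0 became 1 with the Wald test, 1 with voom, 2 with no filter and 6 with replicates 1 and 2 alone, and 0 to 7 with libraries left out (7 without either replicate 3 library). In SKOV3 leaving out gave 0 to 1. OVCAR-3 minus CAOV3 went from 9 to 3 with no set term, 2 with the replicate block and 20 with replicates 1 and 2 alone. Leaving out gave 0 to 20: 19 without either OVCAR-3 replicate 3 library, 4 without either CAOV3 replicate 3 library, OVCAR-3 GSK-J4 replicate 2 or GSK-J5 replicate 1, and 5 without GSK-J5 replicate 2. OVCAR-3 minus SKOV3 went from 9 to 3 with no set term and 17 with replicates 1 and 2 alone, and 0 to 17 with libraries left out (17 without either OVCAR-3 replicate 3 library). CAOV3 minus SKOV3 gave 1 with replicates 1 and 2 alone, and 0 to 1 with libraries left out. Control levels gave 13 to 26 genes for CAOV3 against OVCAR-3, 15 to 24 for SKOV3 against OVCAR-3 and 14 to 25 for SKOV3 against CAOV3, lowest without replicate 1 or 2. Named genes kept direction and side of the threshold in 2436 cases, came to pass it in 142, no longer passed in 168 and turned in 4. The replicate block moved no other count by more than 1.5 times. DESeq2 size factors moved the median of all genes by at most 0.055. The cause of these changes was not tested.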

Other observations

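Further genes of the p53 pathway also differed between lines in their response at 72 h, in 2 comparisons that share the OVCAR-3 libraries. Of the 28 further targets tested, edgeR called 9 with a more positive effect in OVCAR-3 than in CAOV3 and 1 with a more negative one, and 8 and 2 against SKOV3. Over all genes these shares were 12.7% and 6.63% against CAOV3, and 13% and 7.82% against SKOV3. The cytokine GDF15 (difference in log2 change 5.77 against CAOV3 and 5.46 against SKOV3), STEAP3 (2.58 and 2.23) and PRKAB1, a subunit of the energy-sensing kinase AMPK (1.81 and 1.81), were more positive in both. E2F7 was called more negative against SKOV3 (-2.52) and was not called against CAOV3 (-2.26, edgeR adjusted p = 0.0618). Of the 20 regulators and cofactors, 7 were more positive and 1 more negative against CAOV3, and 3 and 3 against SKOV3, beside the same shares of all genes. RPL11 (1.61 and 1.54) and RPL5 (1.23 and 1.43), ribosomal proteins that bind MDM2, and KAT5, an acetyltransferase of p53 (1.62 and 1.52), were more positive in both. Counts of these lists with replicates 1 and 2 alone are not given for these contrasts. In OVCAR-3 at 72 h the library sets differed. GDF15 had first-set means of 309.8 CPM in GSK-J4 and 1.73 CPM in GSK-J5, against 113.5 and 35.4 CPM in the second set. KAT5 had first-set means of 29.55 CPM in GSK-J4 and 6.59 CPM in GSK-J5, against 11.3 and 7.98 CPM in the second set.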
